A study of Mus musculus with 586 samples.

Results

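At day 7.5 of mouse development (E7.5) the mesoderm lies as a layer of newly formed cells between the epiblast and the endoderm. The libraries compared here are those the study's labels code MP and MA, from sections 2 to 10 of 2 embryos, embryos 5 and 6. The rule takes every MP and every MA library of these sections and pairs them by section within an embryo, which gave 18 MP and 18 MA libraries in 18 pairs, 36 of the 586 samples in the series. The labels do not spell the codes out; read as in the published atlas, MP is posterior and MA anterior mesoderm, EP and EA are posterior and anterior endoderm, P is the posterior epiblast with the primitive streak, and section 1 is nearest the distal tip. All of these groups came from C57BL/6 embryos at late gastrulation, with no treatment named. The embryos were frozen in OCT and cryosectioned, and small groups of cells were laser-microdissected from each section for RNA sequencing (Geo-seq). The question is which genes set the posterior mesoderm, next to the streak, apart from the anterior mesoderm at the same level of the same embryo.

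Mesoderm forms when epiblast cells pass through the primitive streak, lose their epithelial junctions and migrate between the other layers. WNT, NODAL and FGF signals and the T-box factor Brachyury (T) drive this step. The earliest cells to leave reach the anterior side, where they give rise to heart and cranial mesoderm; cells that leave later remain posterior and lateral and give rise to presomitic (paraxial), lateral plate and extraembryonic mesoderm. Around the anterior mesoderm, the endoderm and the neighbouring tissue secrete WNT and NODAL antagonists, which allow head development, while WNT, FGF and retinoic acid at the posterior end turn on the Cdx and Hox genes.

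The values are FPKM, sequenced fragments scaled to transcript length and to the mapped fragments of the library. In the 36 libraries 6965 to 9976 genes reached 1 FPKM (median 9148), and the FPKM steps of low genes gave a rough depth of 1.65 to 4.72 M reads each (median 2.65 M). The marker genes ran with the labels: the median of Myl7, an atrial and early-heart myosin light chain, was 508 and 770 FPKM in MA of embryos 5 and 6 against 37.5 and 121 in MP, and that of Tbx6, a T-box factor of paraxial mesoderm, was 14.4 and 10.1 FPKM in MP against 0.513 and 1.85 in MA. Few genes were found in 3 libraries: MA of embryo 5 section 2, and MP of embryo 6 sections 2 and 7. Markers of other tissue were high in 3 others. MA of embryo 6 section 9 had a summed 12587 FPKM of visceral endoderm markers against a median of 834 in its group, and MP of embryo 5 section 10 had 2869 against 395. In these sums Spink3 led, with 10477 and 1075 FPKM. MA of embryo 6 section 2 had 2496 FPKM of trophoblast and decidua markers against 98.3, of which Prl8a2 alone gave 2389. Results that change without the pairs holding these libraries are given below with both values.

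Of the 9322 genes with a mean of at least 1 FPKM over the 36 libraries, 71 (0.762%) were higher and 75 (0.805%) lower in MP than in MA at an adjusted p under 0.05, 146 in all (1.57%), and 749 (8.03%) were under an unadjusted p of 0.05. The test was limma on log2(FPKM + 1), with the 2 embryos as the replicates. A difference is given on that scale throughout, with its standard error (SE), and understates the change of genes at a few FPKM. The SE pools the spread of EA, EP, MA, MP and P over the 2 embryos, with 4 residual degrees of freedom. It is also drawn toward that of other genes (median of 11.5 prior degrees of freedom). Neither the SE nor the p-value measures the spread of MP minus MA between the 2 embryos alone. All 146 genes had the same sign in both embryos, which a call on the mean of 2 embryos nearly requires, so nothing is read from it (of all tested genes 47.3% had the same sign). The median difference of all tested genes was −0.09. The split depends on how libraries are scaled: after scaling to an equal sum it was 87 higher and 58 lower, and after scaling to an equal median 87 higher and 49 lower. With the MA and MP libraries of embryo 5 left out (written below as embryo 6 alone) there were 66 calls, and with those of embryo 6 left out (embryo 5 alone) 102. In these fits MA and MP are 1 embryo each, the spread comes from the other regions, and the lone pair is assumed to vary like them, so their p-values show how far a call depends on an embryo and give no support of their own. As in all bulk samples, fewer cells of a type and less RNA per cell cannot be told apart.

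Among the genes higher in MP were 11 of the primitive streak list and 7 of the Hox and Cdx list. Among those lower in MP were 4 of the ectoderm and neural list, 3 WNT antagonists and 3 of the definitive endoderm list. In 50 of the 75 lower genes (66.7%) the mean level in P was also below that in MP, so that it was lowest in P and highest in MA of these 3 regions; P was above MP in 7932 of all tested genes (85.1%). In the 71 higher genes P was above MP in 63 (88.7%), a share near that of all genes. The 8 higher genes that were no higher in P than in MP were Foxf1, Galnt14, Igfbp4, Kcnmb4, Lect1, Myrfl, Pdlim4 and Sowahd. Foxf1 is a forkhead factor of lateral plate and extraembryonic mesoderm.

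**Figure D1:**
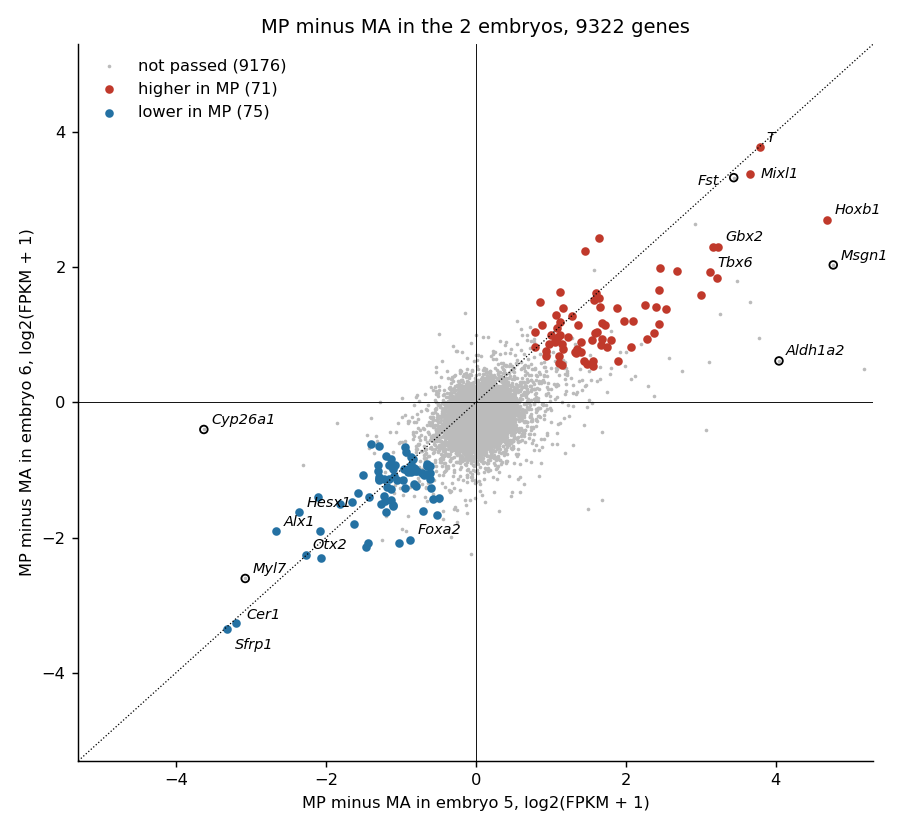
MP minus MA in embryo 5 (x) against embryo 6 (y), on the log2(FPKM + 1) scale, 1 point per gene for 9322 genes; the dotted line marks equality. The 71 higher genes (red) and 75 lower genes (blue) lie in the corners where both embryos have the same sign, and T, Sfrp1 and Cer1 lie near the line; open circles mark 5 genes with large differences that did not pass, of which Msgn1, Aldh1a2 and Cyp26a1 lie far from it.

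Primitive streak genes were among those with the largest differences. T, the gene of Brachyury (chr17:8434423-8442496, plus strand, GRCm38), had a lowest, median and highest level of 0.794, 7.10 and 17.4 FPKM in MA of embryo 5 and of 45.1, 74.5 and 140 in MP. In embryo 6 it had 0.519, 7.06 and 81.8 FPKM in MA and 39.8, 163 and 334 in MP. The groups did not overlap in embryo 5 and did in embryo 6, where MA of section 2, the library with trophoblast and decidua markers, was the high one; MP was above MA in all 18 pairs. The difference was 3.78 ± 0.14 (SE, n = 2 embryos, adjusted p = 2.15e-10) and passed in all 17 alternative analyses.

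Mixl1, a homeobox gene of the streak (chr1:180693043-180697034, minus strand), was close to absent from MA. Its lowest, median and highest levels were 0, 0.1 and 1.3 FPKM in MA of embryo 5 and 5.38, 12.2 and 37.1 in MP. In embryo 6 they were 0, 0.190 and 0.708 FPKM in MA and 4.82, 13.6 and 30.7 in MP. No MP library overlapped the MA libraries of its embryo, and the difference was 3.51 ± 0.20 (adjusted p = 6.69e-08). Evx1, a homeobox gene of the posterior streak, averaged 0.455 FPKM in MA and 6.67 in MP, a difference of 2.03 ± 0.21 (adjusted p = 5.62e-05), with MP higher in 17 of 18 pairs. MP stayed well below the streak region itself. Its mean was 19.2% of that of P for T (120 ± 59.7 against 629 ± 254 FPKM, SD, n = 2) and 11.6% for Mixl1 (15.6 ± 1.58 against 134 ± 29.6 FPKM).

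Of the 26 primitive streak genes listed, 23 were tested, 11 were higher in MP and none lower, with 16 higher and 1 lower at an unadjusted p under 0.05. The 11 were T, Mixl1, Fgf4, Wnt3a, Wnt5b, Wnt8a, Evx1, Sp8, Cdx1, Cdx2 and Axin2. The list's median difference was 1.26 against −0.09 over all genes, and 20 of the 23 had MP higher in both embryos. Embryo 6 alone gave 4 calls, embryo 5 alone 13, and the fit without the embryo block gave 4. Fst, the secreted activin and BMP antagonist follistatin, had no call. Its levels did not overlap in either embryo (MA at most 7.31 and 9.68 FPKM, MP at least 25.9 and 14.8), yet the difference of 3.38 ± 0.53 did not pass (adjusted p = 0.0714); it passed without the pairs holding the low-gene libraries (0.0275) and without those holding other-tissue libraries (0.0454). Across all genes, 7 (0.0751%) had every MP library above every MA library in both embryos, namely Axin2, Cdx2, Fst, Hoxb1, Mixl1, Nefm and Tcea3, and none had the reverse.

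Mesp1, a basic helix-loop-helix factor switched on as mesoderm leaves the streak, had medians of 9.50 FPKM in MA and 20.3 in MP of embryo 5, and of 85.8 and 87.1 in embryo 6. MP was higher in 11 pairs and lower in 7, and the difference of 0.56 ± 0.72 did not pass (adjusted p = 0.959). Of 14 genes listed for nascent mesoderm 13 were tested and 2 were higher in MP. These were Cited2, a transcriptional co-regulator, with 13.5 ± 4.11 FPKM in MA and 25.2 ± 1.76 in MP (0.90 ± 0.20, adjusted p = 0.0336), and Frzb, described with the WNT antagonists. Neither passed in embryo 6 alone, and Cited2 did not pass in embryo 5 alone (0.104).

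The Cdx and anterior Hox genes, which give axial tissue its trunk and tail identity, were higher in MP in 7 of 9 cases. Hoxb1 (chr11:96365752-96368256, plus strand) had 0, 1.89 and 5.80 FPKM (lowest, median, highest) in MA of embryo 5 and 24.8, 55.1 and 114 in MP; in embryo 6 it had 0.212, 2.17 and 8.47 in MA and 9.00, 20.2 and 43.0 in MP. The groups did not overlap in either embryo. The difference was larger in embryo 5 (4.68) than in embryo 6 (2.70), and the joint value of 3.69 ± 0.52 (adjusted p = 0.0375) passed in 12 of 17 alternatives. Without the pairs that hold other-tissue libraries its adjusted p was 0.0926.

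Cdx2, a caudal-type homeobox gene, was at 0 in at least 5 of the 9 MA libraries of embryo 5, where its highest level was 1.18 FPKM, and in MP ran from 2.81 over a median of 10.4 to 17.9. Embryo 6 reached 0.637 FPKM in MA and ran from 1.46 over 5.08 to 15.9 in MP, again with no overlap, and the difference was 2.73 ± 0.29 (adjusted p = 0.000355). Cdx1 averaged 0.0238 FPKM in MA, 5.04 in MP and 57.9 in P (2.29 ± 0.37, adjusted p = 0.0197). Hoxb2, with 4.45 FPKM in MA and 14.5 in MP, had the highest MA level of these genes (1.91 ± 0.26, adjusted p = 0.00133).

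Of 31 Hox and Cdx genes listed 9 were tested, the others lying under 1 FPKM on average; 7 of the 9 were higher in MP (among them Cdx1, Cdx2, Cdx4, Hoxa2, Hoxb1 and Hoxb2), none was lower, and all 9 had MP higher in both embryos. Hoxb8 was listed at 0 in all 36 libraries. Embryo 6 alone gave 2 calls among the 9 and embryo 5 alone 7, and without the other-tissue pairs there were 4. In embryo 6 alone Hoxb2 (adjusted p = 0.0528), Cdx1 (0.162) and Cdx4 (0.440) did not pass. Gbx2, a homeobox gene of the future hindbrain that is first expressed in the posterior embryo, followed the same course, with 0.733 ± 0.0386 FPKM in MA, 10.4 ± 4.19 in MP and 23.8 ± 7.84 in P. Its difference of 2.77 ± 0.22 (adjusted p = 2.41e-06) had MP higher in all 18 pairs and passed in all 17 alternatives.

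**Figure D2:**
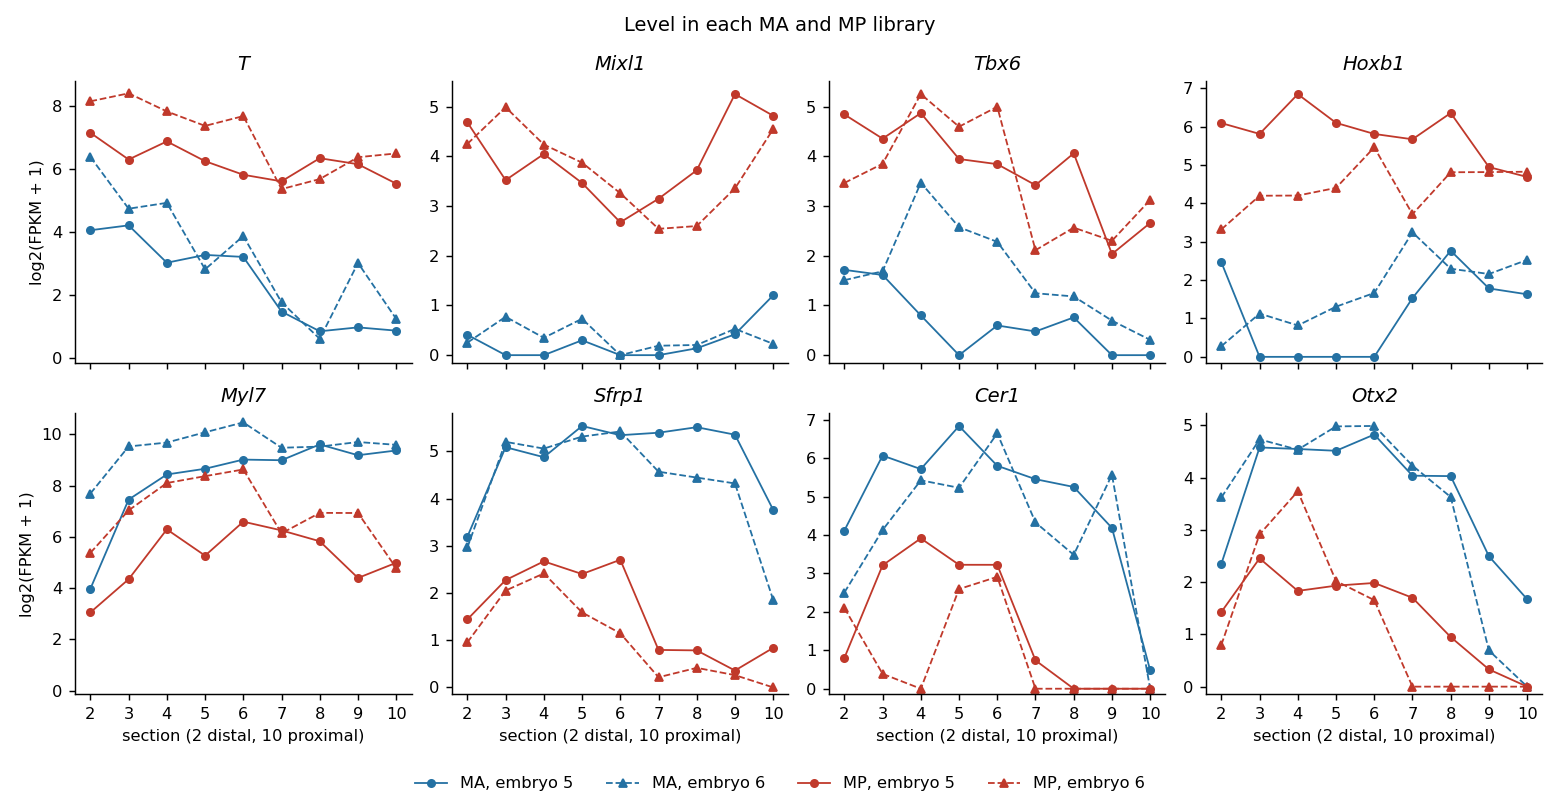
Levels of 8 genes, log2(FPKM + 1) on the y axis, by section from 2 (distal) to 10 (proximal) on the x axis, for MA (blue) and MP (red) of embryo 5 (solid, circles) and embryo 6 (dashed, triangles), 1 point per library. T, Mixl1, Tbx6 and Hoxb1 have MP above MA in all 18 section pairs, Myl7 and Sfrp1 have MP below MA in all 18, and T in MA falls toward section 10.

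Most presomitic and paraxial mesoderm genes had higher levels in MP, with few calls. Tbx6 (chr7:126781483-126785560, plus strand) had 0, 0.513 and 2.29 FPKM in MA of embryo 5 and 3.10, 14.4 and 28.3 in MP. Embryo 6 had 0.238, 1.85 and 10.1 FPKM in MA and 3.33, 10.1 and 37.2 in MP. The groups overlapped in embryo 6 alone. The difference was 2.52 ± 0.29 (adjusted p = 0.000882), with MP higher in 18 of 18 pairs and a call in all 17 alternatives. Its mean in MP, 15.1 ± 0.187 FPKM, was 43.1% of that in P.

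Msgn1, a helix-loop-helix factor that acts with Tbx6 in presomitic mesoderm, was listed at 0 in all 18 MA libraries. In MP it had 14.3, 30.2 and 46.5 FPKM in embryo 5 and 0, 4.67 and 11.2 in embryo 6. The embryos differed too much in size for a call: the differences were 4.77 and 2.03, and the joint value of 3.40 ± 1.07 had an adjusted p of 0.488. Hes7, an oscillating repressor of the segmentation clock, had MP medians of 10.9 and 1.5 FPKM against 0 and 0.406 in MA (2.28 ± 0.45, adjusted p = 0.0742). It passed without the low-gene pairs (0.0171) and without the other-tissue pairs (0.0275), and had 0.000209 in embryo 5 alone.

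Of 25 presomitic and paraxial genes 19 were tested; 1 was higher (Tbx6), 1 lower (Ripply1), and 8 higher and 2 lower at an unadjusted p under 0.05. The median difference was 1.20, and 14 of the 19 had MP higher in both embryos. Embryo 5 alone gave 6 higher calls and embryo 6 alone 1, and there were 3 without the low-gene pairs and 3 without the other-tissue pairs. The summed level of the list in MP had a median of 393 FPKM in embryo 5 and 217 in embryo 6, against 59.9 and 219 in MA. Ripply1, a co-repressor that ends the presomitic program where segments form, went the other way, with 3.85 ± 0.582 FPKM in MA and 0.616 ± 0.573 in MP. It was lower in 14 pairs and higher in none, a difference of −1.31 ± 0.22 (adjusted p = 0.00368; 0.0822 in embryo 5 alone).

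WNT ligands were also on the posterior side. Of 17 genes in the WNT ligand list, which also holds the R-spondins Rspo1, Rspo2 and Rspo3, 8 were tested. All 8 had MP higher in both embryos, and 3 passed. Wnt3a, the ligand that maintains presomitic and tail mesoderm, averaged 0.0911 FPKM in MA, 2.58 in MP and 29.0 in P (1.45 ± 0.25, adjusted p = 0.00995). Wnt5b, a non-canonical ligand, averaged 1.08, 4.50 and 20.2 FPKM in the same order (1.31 ± 0.28, adjusted p = 0.0375). Wnt8a averaged 0.278, 1.94 and 23.4 FPKM (1.05 ± 0.23, adjusted p = 0.0337; 0.0583 without the low-gene pairs). MP held 8.90% of the P level of Wnt3a, less than its 19.2% of T or 43.1% of Tbx6. None of the 3 passed in embryo 6 alone (adjusted p = 0.349, 0.297 and 0.608).

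Of 17 WNT target genes 13 were tested, 5 were higher in MP (Axin2, T, Cdx1, Nkd1 and Cdx4) and none lower; 8 were higher at an unadjusted p under 0.05, the median difference was 1.03, and embryo 6 alone gave 1 call. Axin2, the feedback inhibitor widely used as a readout of canonical WNT signalling, had 0.218, 0.780 and 1.65 FPKM in MA of embryo 5 and 1.80, 2.52 and 5.40 in MP. The levels of embryo 6 were 1.26, 2.14 and 3.20 FPKM in MA and 3.55, 6.36 and 10.7 in MP. The groups were separate in both embryos although MA of embryo 6 lay above MA of embryo 5, and the difference was 1.15 ± 0.21 (adjusted p = 0.00811; 0.157 in embryo 6 alone and 0.196 in embryo 5 alone). Sp5, a zinc finger factor induced by canonical WNT, averaged 3.15 FPKM in MA and 9.51 in MP (1.43 ± 0.35, adjusted p = 0.125; 0.0456 in embryo 5 alone and 0.0219 without the other-tissue pairs), with MP higher in 17 of 18 pairs.

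Canonical WNT acts through TCF and LEF factors, whose core site reads CTTTGA or CTTTGT. The 250 bases before the start of T (chr17:8434173-8434422, plus strand, RefSeq, GRCm38.p6), of Msgn1 (chr12:11208949-11209198, minus strand) and of Sp5 (chr2:70474673-70474922, plus strand) are shown, because these 3 genes of the posterior side hold 1, 3 and 4 matches on either strand. Of these genes T passed in MP minus MA, and Msgn1 and Sp5 did not. Each window is written 5′ to 3′ on the gene's strand, with the matches in capitals.
T: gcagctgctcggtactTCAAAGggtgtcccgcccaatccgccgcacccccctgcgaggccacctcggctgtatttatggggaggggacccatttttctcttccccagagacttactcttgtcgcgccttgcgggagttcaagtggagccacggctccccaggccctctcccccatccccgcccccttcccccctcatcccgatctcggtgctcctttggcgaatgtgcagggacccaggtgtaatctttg
Msgn1: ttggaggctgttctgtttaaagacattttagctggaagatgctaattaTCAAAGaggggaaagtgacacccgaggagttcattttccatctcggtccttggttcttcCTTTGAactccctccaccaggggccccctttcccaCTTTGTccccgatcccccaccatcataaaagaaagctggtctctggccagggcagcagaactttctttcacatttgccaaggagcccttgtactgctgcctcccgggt
Sp5: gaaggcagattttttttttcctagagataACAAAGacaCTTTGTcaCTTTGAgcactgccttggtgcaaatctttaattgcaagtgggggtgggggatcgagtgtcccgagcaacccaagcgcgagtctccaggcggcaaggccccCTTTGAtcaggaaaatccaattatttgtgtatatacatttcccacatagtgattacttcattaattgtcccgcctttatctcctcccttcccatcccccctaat
At least 1 match stood in 27.6% of all 32851 RefSeq windows of this length, and 3 or more in 0.773%. The genes called here did not hold it more often as a set: 18 of 67 windows (26.9%) of the higher genes with an entry had a match, and 21 of 80 windows (26.2%) of the lower genes. The T-box half-site TCACACC was in 2.99% of the windows of higher genes, 2.50% of those of lower genes and 3.33% of all. The OTX site TAATCC was in 7.46%, 2.50% and 6.25%. Axin2 and Tbx6 had no TCF/LEF match in this window. Such matches are descriptions of the sequence and not measured binding.

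The secreted WNT antagonists divided between the sides. Sfrp1, a decoy receptor that binds WNT proteins (chr8:23411502-23449632, plus strand), had 8.15, 39.6 and 45.5 FPKM in MA of embryo 5 and 0.282, 1.72 and 5.52 in MP. Those of embryo 6 were 2.61, 22.8 and 41.9 FPKM in MA and 0, 0.939 and 4.33 in MP. MP was below MA in all 18 pairs, the difference was −3.33 ± 0.23 (adjusted p = 8.94e-07), and it was nearly equal in the embryos (−3.31 and −3.35). P had 0.249 FPKM and EA 18 FPKM, so that MA held the highest mean of the 5 regions, 28.6 ± 5.67.

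Cer1, which binds NODAL, BMP and WNT ligands (chr4:82881751-82885148, minus strand), had 0.393, 42.7 and 113 FPKM in MA of embryo 5 and 0, 0.742 and 14 in MP. In embryo 6 it had 0, 19.1 and 99.0 FPKM in MA, and at most 6.52 in MP, with a median of 0. MP was lower in 17 pairs and higher in none, and the difference was −3.23 ± 0.22 (adjusted p = 8.94e-07). Shisa2, which holds back WNT and FGF receptors inside the cell, averaged 5.3 FPKM in MA and 0.632 in MP (−1.65 ± 0.20, adjusted p = 0.000241). Frzb, another secreted decoy receptor, was on the opposite side from its relative Sfrp1, with 6.88 ± 4.42 FPKM in MA, 26.3 ± 4.23 in MP and 63.1 ± 21.5 in P (2.05 ± 0.32, adjusted p = 0.0139; 0.102 in embryo 6 alone). These were the 4 calls among 14 tested of 27 WNT receptors and antagonists, 1 higher and 3 lower.

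Among FGF genes calls were made in both directions. Fgf4, a ligand made in the streak, averaged 0.564 FPKM in MA and 3.07 in MP and was higher in all 18 pairs (1.31 ± 0.20, adjusted p = 0.00228). Fgf8, whose loss stops mesoderm from leaving the streak, averaged 3.83 FPKM in MA, 6.18 in MP and 40.2 in P, and its difference of 0.78 ± 0.38 did not pass (adjusted p = 0.729; 1.51 in embryo 5 and 0.04 in embryo 6). Fgfr2, a receptor, averaged 4.81 FPKM in MA and 1.73 in MP and was lower in all 18 pairs (−1.09 ± 0.20, adjusted p = 0.00703). Fgf5, a ligand of the epiblast, was also lower, so that of 14 tested of 18 ligands and receptors 1 was higher and 2 lower (3 higher and 0 lower in embryo 5 alone, 0 and 0 in embryo 6 alone).

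Of 15 genes of FGF-ERK feedback 12 were tested, 2 were higher and none lower (7 higher and 1 lower at an unadjusted p under 0.05; 4 higher calls without the other-tissue pairs). Spry2, an inhibitor induced by the pathway, averaged 12.4 FPKM in MA and 24.8 in MP (0.85 ± 0.18, adjusted p = 0.0264). Etv4, an ETS factor downstream of FGF, averaged 2.38 and 5.81 FPKM (0.97 ± 0.23, adjusted p = 0.0419). Both were lost without the low-gene pairs (0.0505 and 0.0806) and in embryo 6 alone (0.504 and 0.506), and Etv4 also in embryo 5 alone (0.218). In embryo 6 alone Fgf4 (0.192) and Fgfr2 (0.162) did not pass either, and Fgfr2 had 0.163 in embryo 5 alone.

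None of the tested heart muscle genes passed, and their differences went both ways. Myl7 (chr11:5896637-5898782, minus strand) had 14.7, 508 and 779 FPKM in MA of embryo 5 and 7.30, 37.5 and 95.5 in MP. In embryo 6 it had 206, 770 and 1413 FPKM in MA and 26.6, 121 and 395 in MP. MA was above MP in all 18 pairs, but the groups overlapped in both embryos, since MA of section 2, a library set apart in each embryo, was low and MP of sections 4 to 6 of embryo 6 reached 274 to 395 FPKM. The difference was −2.84 ± 0.64 and did not pass (adjusted p = 0.243). Of 17 alternatives 3 gave a call. These were the fit on the embryos' own differences (limma adjusted p = 8.77e-29), that on sections 5 to 10 (0.0389) and that on the 18 section pairs (3.73e-08). The first has 2 values per gene, so its spread comes largely from other genes. The last counts sections of an embryo, which are not replicates, as nearly independent. Nothing is read from how small these p-values are. Myl7 was also present in EA at 96.1 FPKM.

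Of 20 contractile heart genes listed 9 were tested and none passed, with 2 lower at an unadjusted p under 0.05. Of the 9, 5 were lower and 2 higher in MP in both embryos, and the median difference was −0.34. The summed level of the list had medians of 535 and 852 FPKM in MA of embryos 5 and 6 and of 74.3 and 164 in MP, most of it from Myl7. Nexn, an actin-binding protein of muscle, averaged 3.57 FPKM in MA and 1.21 in MP (−0.91 ± 0.22, adjusted p = 0.0547) and passed in embryo 5 alone (0.0296), without the other-tissue pairs (0.00358) and without 1 EP library that a small RNA gene dominated (0.0394). The 14 tested heart and pharyngeal factors, of 23, gave no call (4 higher and 3 lower at an unadjusted p under 0.05). Gata4, a zinc finger factor of heart and endoderm, averaged 5.99 FPKM in MA and 4.66 in MP (−0.28 ± 0.23, adjusted p = 0.916). Nkx2-5, the homeobox factor of heart precursors, was too low to test: 0.477, 0.800 and 2.75 FPKM in MA of sections 8 to 10 of embryo 5, 0.739, 2.38 and 0.274 FPKM in MA of sections 6, 9 and 10 of embryo 6, and 0 in every other MA and every MP library.

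Cranial mesoderm genes were lower in MP in 3 of 9 cases. Alx1, a homeobox gene of head mesenchyme (chr10:102998707-103030215, minus strand), had 0, 17.0 and 41.4 FPKM in MA of embryo 5 and at most 1.82 in MP; in embryo 6 it had 0, 5.23 and 16.6 FPKM in MA and at most 0.735 in MP. It was lower in MP in 15 pairs and higher in 1, with a difference of −2.28 ± 0.23 (adjusted p = 5.93e-05). The MA level peaked in the middle sections: it was 36.8, 41.4 and 37.3 FPKM in sections 5 to 7 of embryo 5 and 0 in sections 2 and 10. Foxc2, a forkhead gene of cranial and paraxial mesoderm, averaged 15.0 ± 9.00 and 8.05 FPKM (−1.0 ± 0.24, adjusted p = 0.0468). Both were among the 3 calls in 9 tested of 14 cranial genes; Foxc2 was lost without the low-gene pairs (0.125) and in embryo 5 alone (adjusted p = 1).

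Lateral plate and extraembryonic mesoderm genes showed no common side. Foxf1 averaged 5.33 ± 5.14 FPKM in MA and 12.3 ± 6.32 in MP, and 1.73 in P (1.07 ± 0.20, adjusted p = 0.0106; 0.431 in embryo 6 alone). Hand1, a helix-loop-helix factor of the same tissues and of the early heart, was highest in section 10 in both regions, at 24.2 FPKM in MA and 35.2 in MP in section 10 of embryo 5 and at 113 and 114 in embryo 6. Its difference of 0.86 ± 0.23 did not pass (adjusted p = 0.0869). Of 25 genes listed 15 were tested, 1 was higher and 2 lower, the latter being the keratins Krt8 and Krt18. Without the low-gene pairs 3 were higher, as without the other-tissue pairs. Kdr, the VEGF receptor of blood and vessel precursors, averaged 2.63 FPKM in MA and 3.13 in MP (0.14 ± 0.27, adjusted p = 0.967). Of 26 blood and endothelial genes 5 were tested. Lmo2, a partner of blood transcription factors, was higher (1.18 to 3.36 FPKM, 1.17 ± 0.21, adjusted p = 0.00811; 0.376 in embryo 5 alone), and Hhex was lower.

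**Figure D3:**
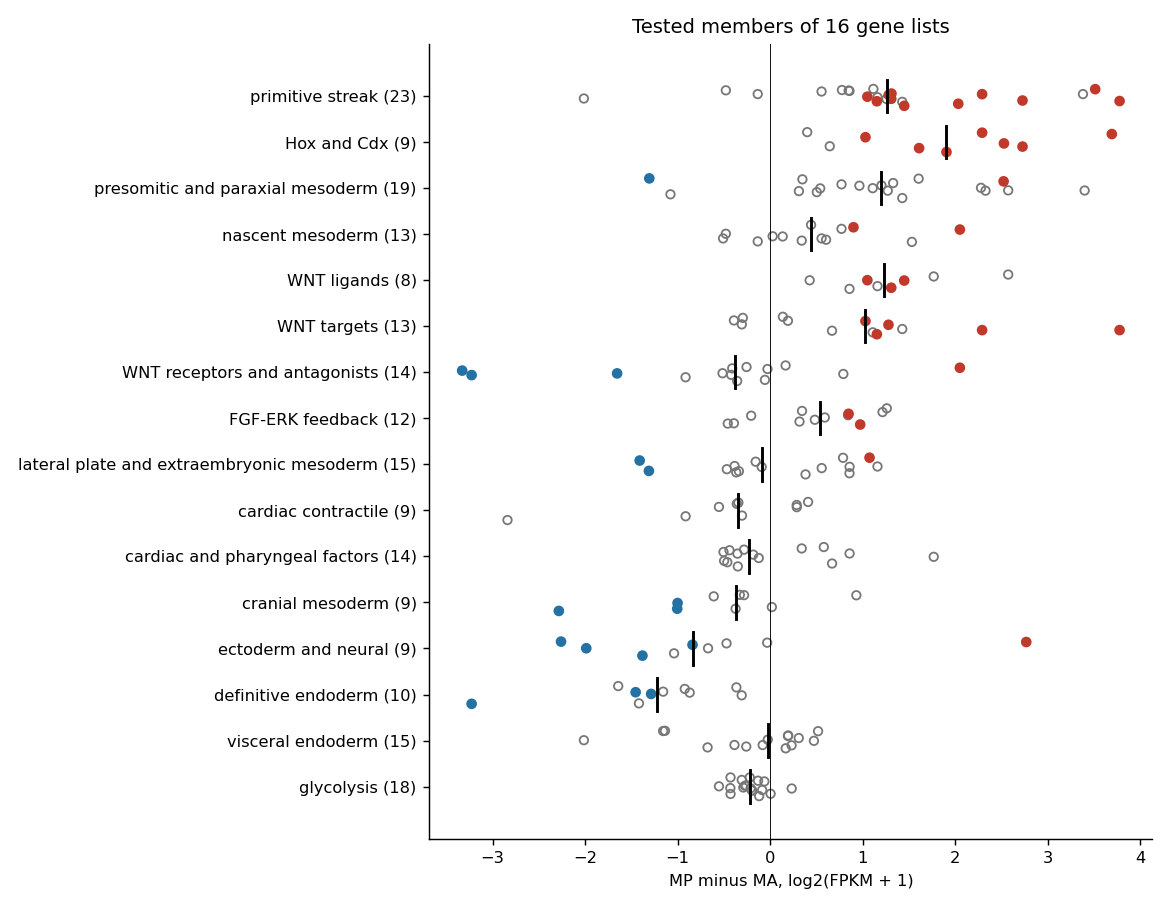
MP minus MA, log2(FPKM + 1), for the tested members of 16 gene lists; each point is a gene, filled where it passed, and each bar is the list's median. The primitive streak, Hox and Cdx, WNT ligand, WNT target and presomitic lists lie to the right of 0 (medians 1.03 to 1.91), and the definitive endoderm and neural lists to the left.

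Head genes shared with neural tissue and endoderm were lower in MP. Otx2, the homeobox gene of forebrain and midbrain and of anterior endoderm (chr14:48657677-48673819, minus strand), had 2.19, 15.4 and 27.3 FPKM in MA of embryo 5 and 0, 2.25 and 4.48 in MP. In embryo 6 it had 0, 17.7 and 30.7 FPKM in MA and 0, 0.741 and 12.3 in MP. MP was lower in 17 pairs and higher in none (−2.26 ± 0.28, adjusted p = 0.000854). Hesx1, a repressor of the anterior neural plate and endoderm, averaged 6.5 ± 4.22 FPKM in MA and 0.217 in MP and was at 0 in every MP library of embryo 6 (−1.99 ± 0.24, adjusted p = 0.000286). Irx3 averaged 5.24 FPKM in MA and 1.38 in MP and was lower in all 18 pairs (−1.38 ± 0.19, adjusted p = 0.000583; 0.0502 in embryo 5 alone). Of 20 ectoderm and neural genes 9 were tested, 4 were lower (Otx2, Hesx1, Irx3 and Ncam1; 2 calls in embryo 5 alone) and 1 higher (Gbx2). Sox2, which marks neural and epiblast cells, averaged 3.54 FPKM in MA and 0.893 in MP and did not pass (−1.04 ± 0.40, adjusted p = 0.507).

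Endoderm lies against the anterior mesoderm, and a few of its markers were lower in MP as well. Of 18 definitive endoderm genes 10 were tested, 3 were lower in MP and none higher (6 lower at an unadjusted p under 0.05), and the median difference was −1.22. Embryo 5 alone gave 1 lower call. Foxa2, a forkhead factor of endoderm and midline, averaged 4.43 ± 2.07 FPKM in MA, 1.02 in MP and 26.0 in EA (−1.45 ± 0.24, adjusted p = 0.00476; 0.368 in embryo 5 alone). Hhex, a homeobox gene of anterior endoderm and blood vessels, averaged 2.50, 0.343 and 5.6 FPKM (−1.29 ± 0.24, adjusted p = 0.0106; 0.126 in embryo 6 alone and 0.329 in embryo 5 alone). The remaining call was Cer1. Krt8 and Krt18, the keratin pair of simple epithelia, averaged 83.0 and 91.2 FPKM in MA, 29.2 and 35 in MP, and 240 and 273 in EA; both were lower in MP (−1.41 ± 0.20 and −1.31 ± 0.19, adjusted p = 0.00228 and 0.00155).

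The summed level of the definitive endoderm list had medians of 374 and 667 FPKM in MA of embryos 5 and 6 and 259 and 172 in MP, against 7466 and 12714 in EA. That of the visceral endoderm list had medians of 580 and 834 FPKM in MA, 395 and 391 in MP, and 7128 and 12826 in EA. Both lists hold Spink3, so their sums are not separate measures. This gene alone had 10477 FPKM in MA of embryo 6 section 9. None of the 15 tested visceral endoderm genes, of 25, passed (1 lower at an unadjusted p under 0.05), and their median difference was −0.03; 1 was lower without the low-gene pairs and 1 without the other-tissue pairs. Ttr, a carrier protein abundant in visceral endoderm, averaged 39.8 ± 50.3 FPKM in MA and 11.4 in MP against 574 in EA (−0.26 ± 0.65, adjusted p = 0.974). Over 18 visceral endoderm genes with at least 10 FPKM in EA, Spink3 left out, the MA level had a median of 4.20% of that in EA. These genes ran from 1.82% for Apoc2 to 139% for Cyp26a1, with 16.5% for Dab2, 19.9% for Ctsz and 22.9% for Apoe. Cldn6, of the definitive endoderm list, was at 9.53%. By the same measure the MA level was 6.93% of EA for Ttr, 17.0% for Foxa2, 34.5% for Cer1, 34.6% for Krt8, 44.7% for Hhex, 61.8% for Hesx1 and 84.9% for Shisa2, and Sfrp1 (159%), Otx2 (192%) and Alx1 (1100%) were higher in MA than in EA. The part of endoderm cells in these differences was not tested.

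**Figure D4:**
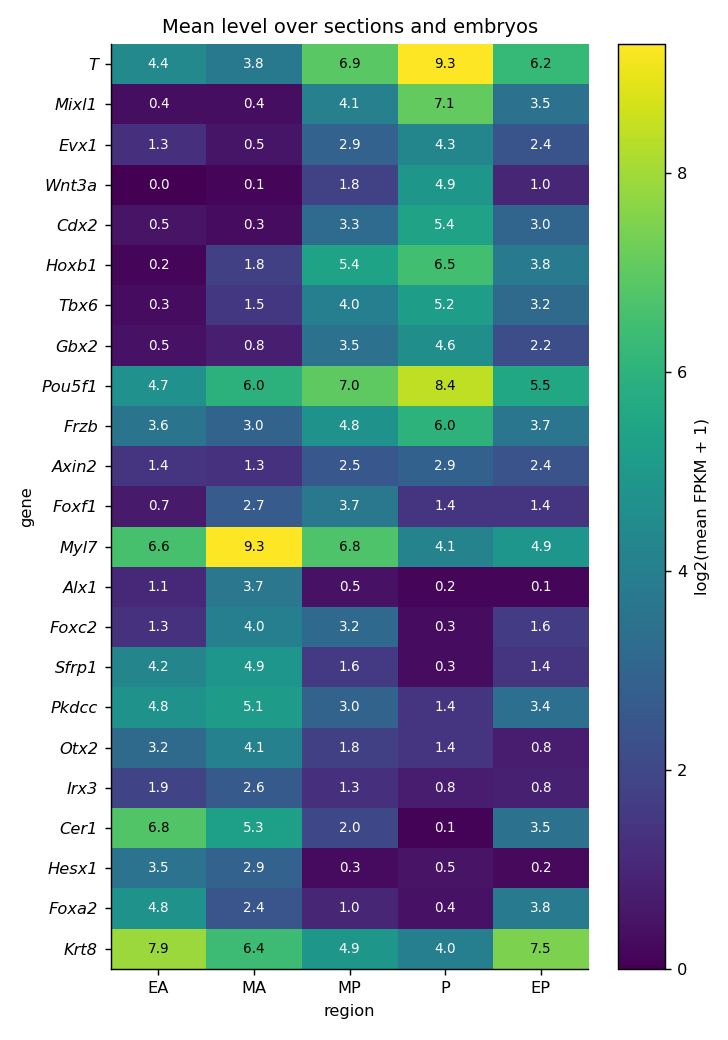
Mean levels of 23 genes, as log2(mean FPKM + 1) shown by colour, in EA, MA, MP, P and EP of sections 2 to 10. Streak, Hox and WNT genes are highest in P, lower in MP and low in MA and EA, while Sfrp1, Otx2 and Alx1 are highest in MA and Cer1 and Foxa2 in EA.

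Other genes with large differences were more varied in kind. Higher in MP were Chst7, a sulphotransferase (1.21 ± 1.14 FPKM in MA, 10.0 ± 2.44 in MP, 2.31 ± 0.22), the kinase Sgk1 (4.21 ± 3.43 and 14.6 ± 0.827 FPKM, 1.96 ± 0.22) and the carbonic anhydrase Car3 (4.85 ± 0.885 and 21.9 ± 17.8 FPKM, 1.80 ± 0.25). Cdkn1a, the cell cycle inhibitor p21, was the 1 call among 28 tested cell cycle genes, with 1.48 ± 0.277 FPKM in MA and 8.30 ± 1.18 in MP (1.85 ± 0.24, higher in 18 of 18 pairs). Lower in MP in all 18 pairs were Pkdcc, a secreted kinase (33.8 ± 3.30 and 6.87 ± 0.295 FPKM, −2.19 ± 0.21), Pcp4, a calmodulin-binding peptide (29.6 ± 1.07 and 9.52 ± 1.86 FPKM, −1.76 ± 0.21), and the deacetylase Hdac6 (8.09 ± 0.624 and 2.46 ± 0.332 FPKM, −1.41 ± 0.19). Car3 (adjusted p = 0.102) and Cdkn1a (0.0584) did not pass in embryo 6 alone.

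Retinoic acid, Notch and guidance genes gave few calls. Stra6, a retinol transporter, was lower (8.91 ± 1.02 FPKM in MA and 2.64 ± 0.577 in MP, −1.18 ± 0.24), 1 of 2 calls among 12 tested of 18 retinoic acid genes. Jag1, a Notch ligand, was the 1 call among 11 Notch genes (13.6 ± 4.68 FPKM in MA, 3.67 ± 0.972 in MP, −1.32 ± 0.21). Of 37 migration and guidance genes 27 were tested and 3 were higher, the ephrin receptor Epha1 (2.45 to 8.98 FPKM, 1.53 ± 0.21), the peptide Apln (0.784 to 3.67 FPKM, 1.23 ± 0.24) and the semaphorin co-receptor Nrp2 (1.31 to 3.44 FPKM, 1.01 ± 0.24). Stra6 (adjusted p = 0.367), Apln (0.361) and Nrp2 (0.165) did not pass in embryo 6 alone, nor Stra6 (0.319), Jag1 (0.179) and Nrp2 (0.5) in embryo 5 alone; without the low-gene pairs Stra6 (0.0979), Apln (0.0755) and Nrp2 (0.0505) did not pass.

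Several gene groups gave no call. None of 12 tested BMP ligands and antagonists (3 higher and 2 lower at an unadjusted p under 0.05), 8 BMP targets (0 and 3), 17 genes of the epithelial to mesenchymal change (0 and 3), 16 of the extracellular matrix (1 and 5) and 18 of glycolysis (0 and 3) passed in limma. Without the other-tissue pairs there were 3 lower calls in the epithelial to mesenchymal list, 1 lower in the BMP targets and 1 higher in the BMP ligands and antagonists, the latter also without the low-gene pairs. Pou5f1, the pluripotency factor OCT4 that later mesoderm loses, was higher in MP, but its list did not follow it. Of 21 core and primed pluripotency genes 17 were tested, 1 was higher (Pou5f1) and 2 were lower (Fgf5 and Otx2). The list's median difference was −0.16, with 2 higher and 6 lower at an unadjusted p under 0.05 in limma. Pou5f1 had 8.82, 30.2 and 58.3 FPKM in MA of embryo 5 and 39.5, 76.9 and 206 in MP. In embryo 6 it had 22.1, 96.1 and 181 FPKM in MA and 54.8, 145 and 336 in MP. The levels overlapped in both embryos, MP was higher in 17 of 18 pairs, and the difference was 1.26 ± 0.19 (adjusted p = 0.00238; 0.134 in embryo 6 alone).

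The embryos parted on several genes of paraxial mesoderm and retinoic acid. Aldh1a2, the enzyme that makes retinoic acid, had 4.79, 42.9 and 92.1 FPKM in MP of embryo 5 and 0, 1.24 and 6.65 in MP of embryo 6, with MA at most 4.44 and 1.71. Its differences were 4.04 and 0.61, and the joint 2.33 ± 1.22 did not pass (adjusted p = 0.821). Cyp26a1, the enzyme that degrades it, had medians of 78.2 FPKM in MA and 1.43 in MP of embryo 5 but of 65.8 and 48.9 in embryo 6 (−3.63 and −0.40; joint −2.01 ± 1.18, adjusted p = 0.872). In MP the medians of Msgn1 and Hes7 were higher in embryo 5, and those of T (163 against 74.5 FPKM) and Mesp1 (87.1 against 20.3) in embryo 6. With 1 embryo of each kind, these differences between embryos have no replicate check.

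The second question was whether the difference between MP and MA changes from distal to proximal. The change is the slope in MP minus that in MA from section 2 to section 10, on the log2(FPKM + 1) scale. No gene passed in limma, 348 (3.73%) were under an unadjusted p of 0.05, and the smallest adjusted p was 0.0518. The median over all genes was −0.23, and −0.02 after scaling to an equal median. With arms of 1 embryo and the spread of the other regions the count was 20 in embryo 6 alone and 13 in embryo 5 alone; it was 9 without the low-gene pairs and 4 without section 2.

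Cdx4, the remaining caudal-type homeobox gene, came nearest to the threshold together with Ly96 and Tubb2a (−3.90 and −3.53), which were named after their values were seen. In MP Cdx4 had 9.60, 10.1 and 16.6 FPKM in sections 8 to 10 of embryo 5 and 2.56, 2.45 and 5.81 in those of embryo 6, and at most 1.85 in every more distal section; MA never exceeded 0.426. The change was 3.51 ± 0.57 (adjusted p = 0.0518; 0.0254 without the low-gene pairs, 0.0357 without section 2 and 0.000694 in embryo 5 alone). Its mean difference was 1.03 ± 0.20 (adjusted p = 0.0137), with means over sections 2 to 4, 5 to 7 and 8 to 10 of −0.02, 0.21 and 2.90. Wnt5b had a change of the same sign, with 0.36, 1.12 and 2.45 in these sections (change 2.85 ± 0.52, adjusted p = 0.0855). Hes7 had one of the opposite sign, with 3.42, 2.59 and 0.83 (−3.23 ± 0.58, adjusted p = 0.0855; 0.0254 without the low-gene pairs, 0.0357 without section 2 and 0.0265 in embryo 5 alone).

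For T the difference was 2.89 in sections 2 to 4 and 4.83 in sections 8 to 10. Its level in MA was 15.5 FPKM in section 2 and 0.82 in section 10 of embryo 5, and 81.8 and 1.36 in embryo 6, while in MP it was 140 and 45.1 in embryo 5 and 280.3 and 88.4 in embryo 6. The change of 2.42 ± 0.61 did not pass (adjusted p = 0.427). The Myl7 difference was −2.09 in the distal and −3.85 in the proximal sections (change −2.39 ± 0.54, adjusted p = 0.260). That of Alx1 was −2.43, −3.93 and −0.49 and so was widest in the middle, which a slope does not capture.

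The last comparison set the mesoderm difference against that between EP and EA in the same sections. EP and EA differed in 39 genes higher (0.418%) and 32 lower (0.343%) in EP. Of the genes called in mesoderm, 69 of the 71 higher (97.2%) and 65 of the 75 lower (86.7%) had the same sign in endoderm, against 4478 of all tested genes (48%). In 1 of 9322 genes (0.0107%) the difference itself differed between the layers, and 683 (7.33%) were under an unadjusted p of 0.05. The gene was T, with 3.78 in mesoderm and 2.34 in endoderm, a gap of 1.43 ± 0.20 (adjusted p = 0.0253). It did not pass on sections 5 to 10 (0.146) or 2 to 7 (gap 0.89, adjusted p = 1.00), with a pseudocount of 0.1 (0.148), with every gene above 0 tested (0.237) or without the embryo block (1.00).

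For other leading genes no gap was detected. Tbx6 differed by 2.52 in mesoderm and 2.44 in endoderm (gap 0.08 ± 0.41), Otx2 by −2.26 and −2.11 (−0.15 ± 0.39), Cdx2 by 2.73 and 2.46 (0.27 ± 0.40), and Cer1 by −3.23 and −3.84 (0.61 ± 0.31). Tbx6 had 0.249 FPKM in EA and 8.38 in EP. Pcp4 and Tfpi, an inhibitor of coagulation, came next to T. Pcp4 had −1.76 in mesoderm and −0.01 in endoderm (gap −1.75 ± 0.29), and Tfpi −1.80 and −0.19 (gap −1.61 ± 0.27). Both gaps lay just outside the threshold (adjusted p = 0.0512) and inside it without the other-tissue pairs (0.0175 and 0.0199) and without 1 EP library in which a small RNA gene took 88.9% of the FPKM sum (0.0143 and 0.0181).

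**Figure D5:**
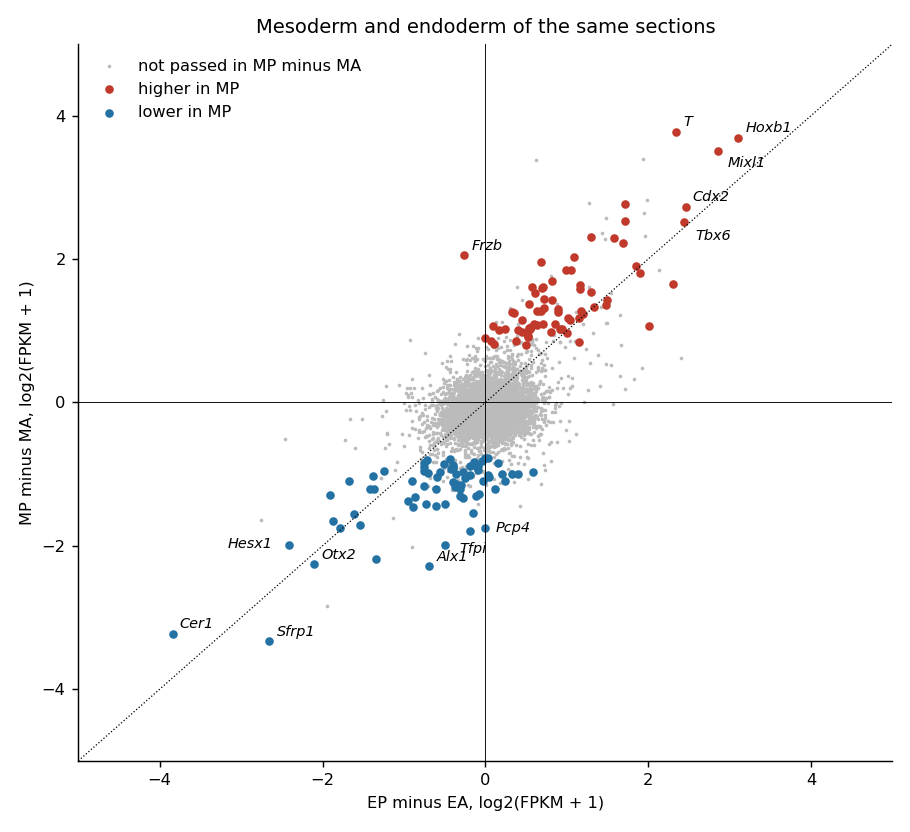
MP minus MA (y) against EP minus EA (x), both as log2(FPKM + 1), 1 point per tested gene; the dotted line marks equality, and red and blue mark genes higher and lower in MP. Tbx6, Cdx2, Otx2 and Cer1 lie near the line, T lies above it, and Pcp4 lies at an EP minus EA of −0.01.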

How the data were processed

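The authors deposited FPKM per gene and sample in 1 table per embryo. Per the submitters' processing notes, TopHat2 2.0.8b, Cufflinks 2.1.1 and the mm10 build were used; annotation and options are not given in the sources used here. Per the labels' protocols, RNA came from laser-microdissected tissue and the library kit was Nextera XT. FPKM are not counts, so no count test was used.

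From them, log2(FPKM + 1) was averaged over sections 2 to 10 for each region (EA, EP, MA, MP, P) of each embryo. limma 3.58.1 in R 4.3.3 (trend and robust empirical Bayes) tested MP minus MA with the embryo as a block, over 9322 of 23361 genes with a mean of at least 1 FPKM, adjusting p by Benjamini-Hochberg at 0.05. The same fit on slopes over sections tested the axis change, and a further contrast the endoderm. Sections of 1 embryo are not replicates. Regions of 1 embryo come from 1 animal, which pairs them; the deviations of MA and MP by embryo correlated at 0.805 across genes. Python 3.11.15, pandas 2.3.3 and matplotlib 3.10.9 made the summaries and figures. The fit was tested on simulated data.

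Genes are named by rule: up to 12 each way with a log2 difference of at least 1 and a mean of at least 5 FPKM, up to 4 per list by p, and 17 marker genes whatever their p. Other genes named as calls of a list, or for not overlapping, were chosen after their values were seen, as were the marker alternatives. Members and lists were chosen with earlier results of these data known. Of 718 list entries 708 matched by symbol, 8 by an older symbol and 2 did not match. Positions are from GENCODE vM21 (GRCm38). In the tables used, 28 columns were not used. Some results are not reported here.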

Additional observations from a re-analysis of the deposited data

Results flagged for a closer look

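The difference of T between the posterior and anterior codes was larger in mesoderm than in endoderm by 1.43 on the log2(FPKM + 1) scale (SE 0.20, limma adjusted p = 0.0253). It was the 1 gene of 9322 for which a test of the difference between the layers passed. Its means were 12.7 ± 8.35 FPKM in MA, 120 ± 59.7 in MP, 19.6 ± 4.44 in EA and 74.4 ± 45.1 in EP (SD, n = 2 embryos). The gap was positive in all 14 alternatives and passed in 9 of them.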

How the results depend on the processing

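MP minus MA gave 146 calls. It gave 84 with a pseudocount of 0.1, 86 with every gene above 0 tested and 66 with genes of at least 5 FPKM. It gave 331 on the embryos' own differences alone, and 66 to 102 with 1 embryo left out. On the 18 section pairs it gave 346, with an estimated correlation of 0.0240 between pairs of an embryo, which counts them as nearly independent. Without the replicate block it gave 24, and the other 2 comparisons 0. The calls shared with the reported set had the same sign under every alternative run. The axis change gave 0 calls, against 16 with a pseudocount of 5, 1 with genes of at least 5 FPKM, 12 at equal sums, 1 at equal medians, 5 on the embryos' own differences, 4 without section 2, 9 without the low-gene pairs and 13 to 20 with 1 embryo left out. The comparison with endoderm gave 1, against 0 with a pseudocount of 0.1, 3 with one of 5, 0 with every gene tested, 7 with genes of at least 5 FPKM, 3 at equal sums, 6 on the embryos' own differences, 0 on sections 5 to 10, 3 on sections 2 to 7, 17 without the other-tissue pairs and 11 without the EP library led by 1 small RNA; it could not be fitted without an embryo. With 1 embryo left out Kdr (0.14) ran from −0.19 to 0.46 and Ttr (−0.26) from −1.11 to 0.59, and Ttr was 0.11 on sections 2 to 7. Causes were not tested. Depth per library is known only roughly.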

Other observations

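Embryonic globin genes Hba-x and Hbb-bh1, which mark the first blood cells of the yolk sac, were listed at 0 in all 36 MP and MA libraries. A further embryonic globin gene, Hbb-y, was not at 0 throughout but averaged under 1 FPKM. Adult globin genes were present in the same libraries. Of 9 adult blood genes listed 6 averaged under 1 FPKM, among them Cd74, at 0 in all 36. The summed level of the list had medians of 1401 and 412 FPKM in MA of embryos 5 and 6 and of 1277 and 169 in MP. None of the 3 tested adult blood genes, the globin genes Hba-a1, Hba-a2 and Beta-s, passed in MP minus MA.

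Of 18 tested glycolysis genes 14 were lower in MP in both embryos and none was higher in both, with a median difference of −0.22 against −0.09 over all genes. None of the 18 passed.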
